A study of Mus musculus with 8 samples.

Results

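The 10 genes studied here encode alternative enzymes for 4 steps of glycolysis and were followed between 2 fractions of blood progenitors: the hexokinases Hk1, Hk2 and Hk3, the phosphofructokinases Pfkl, Pfkm and Pfkp, the aldolases Aldoa and Aldoc, and the enolases Eno1 and Eno2. They were picked by symbol. All 10 were found, on 11 of the 54532 rows of the count table, since Aldoa stands on 2 rows. The libraries came from LSK cells (Lin- C-KIT+ SCA-1+ bone marrow cells, the gate that holds blood stem cells and early progenitors) of C57BL/6 Zeb1 fl/fl;Mx1-Cre mice aged 8 to 12 weeks, taken 14 days after the final dose of pIpC. These cells were sorted into an EpCAM+ and an EpCAM- fraction, with 4 libraries each from 4 mice. Both fractions carried the deletion of Zeb1, a transcription factor that represses epithelial genes such as that of E-cadherin, and no library of undeleted cells was analysed here. Mx1-Cre is switched on by interferon and is also active outside the blood.

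Libraries held 14114491 to 17073546 counts. Epcam, the gene of the protein used for the sort, lay at 161 to 234 CPM (counts scaled to a common library total) in the EpCAM+ libraries and at 1.25 to 8.99 CPM in the EpCAM- libraries. None of the 10 HSPC (hematopoietic stem and progenitor cell) markers was at 0 in all libraries of a fraction, and 9 of the 10 were higher in EpCAM+ cells. EpCAM+ replicate 1 stood apart in plasma cell markers, with a summed 3948 CPM against 384 to 666 CPM in the other EpCAM+ libraries and 169 to 256 CPM in EpCAM- libraries. EpCAM+ replicates 1 and 4 stood apart in dendritic cell markers, at 684 and 571 CPM against 63.7 and 166 CPM in EpCAM+ replicates 2 and 3 and 116 to 200 CPM in EpCAM- libraries. Most of the EpCAM- sums was Irf8, at 113 to 196 CPM, which did not pass. The other 4 of the 5 dendritic cell markers tested were higher in EpCAM+ cells. Of these, 3 did not overlap between fractions, beside 40.1% of all genes tested. These 3 (Xcr1, Clec9a and Batf3) could pass the count filter only through the EpCAM+ libraries, where they were high. Xcr1, for example, had 11.5 and 35.8 CPM in EpCAM+ replicates 2 and 3 and 0.137 to 0.811 CPM in EpCAM- libraries. Of all 13560 genes tested, 42.6% passed, 21.8% as higher in EpCAM+ cells and 20.8% as lower.

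Glycolysis splits glucose into pyruvate in the cytoplasm and yields ATP without oxygen, a route on which resting blood stem cells are known to lean. Hexokinase traps glucose in the cell as glucose 6-phosphate, phosphofructokinase commits the sugar to breakdown, aldolase cuts it into a pair of triose phosphates, and enolase forms phosphoenolpyruvate. Each step can be run by several isozymes, products of separate genes that catalyse the same reaction but differ in tissue and regulation.

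Of the 9 isozyme genes with enough counts to test, Hk3, Pfkm, Aldoa and Eno1 were lower in EpCAM+ cells and Aldoc was higher. Hk1, Hk2, Pfkl and Pfkp did not pass the test, and Eno2 fell under the count filter. The 4 lower genes were 44.4% of the 9, beside 20.8% of all genes, and the 5 called in either direction were 55.6%, beside 42.6%. Fractions did not overlap in CPM for 4 of the 9 genes (44.4%: Hk3, Aldoa, Aldoc and Eno1), close to the 40.1% of all genes tested. The median log2 fold change of EpCAM+ over EpCAM- was -0.32 over the 9 genes and 0.02 over all genes. Upper-quartile scaling moved the all-gene median to 0.11 and the calls over all genes from 2961 higher and 2818 lower to 3642 higher and 2083 lower, and under it the isozyme count was 1 higher and 3 lower. Without EpCAM+ replicate 1, 3 or 4 in turn, the isozyme count was also 1 higher and 3 lower. Without EpCAM- replicate 3 or 4, it was 2 higher, with Eno2 added, and 3 lower. Eno2 could pass the filter only through the EpCAM+ libraries, where it was high, so its added call is not separate support. Over all genes, calls without EpCAM+ replicate 1, 3 or 4 were 2406, 2391 and 2574 higher and 2479, 2271 and 2579 lower.

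**Figure D1:**
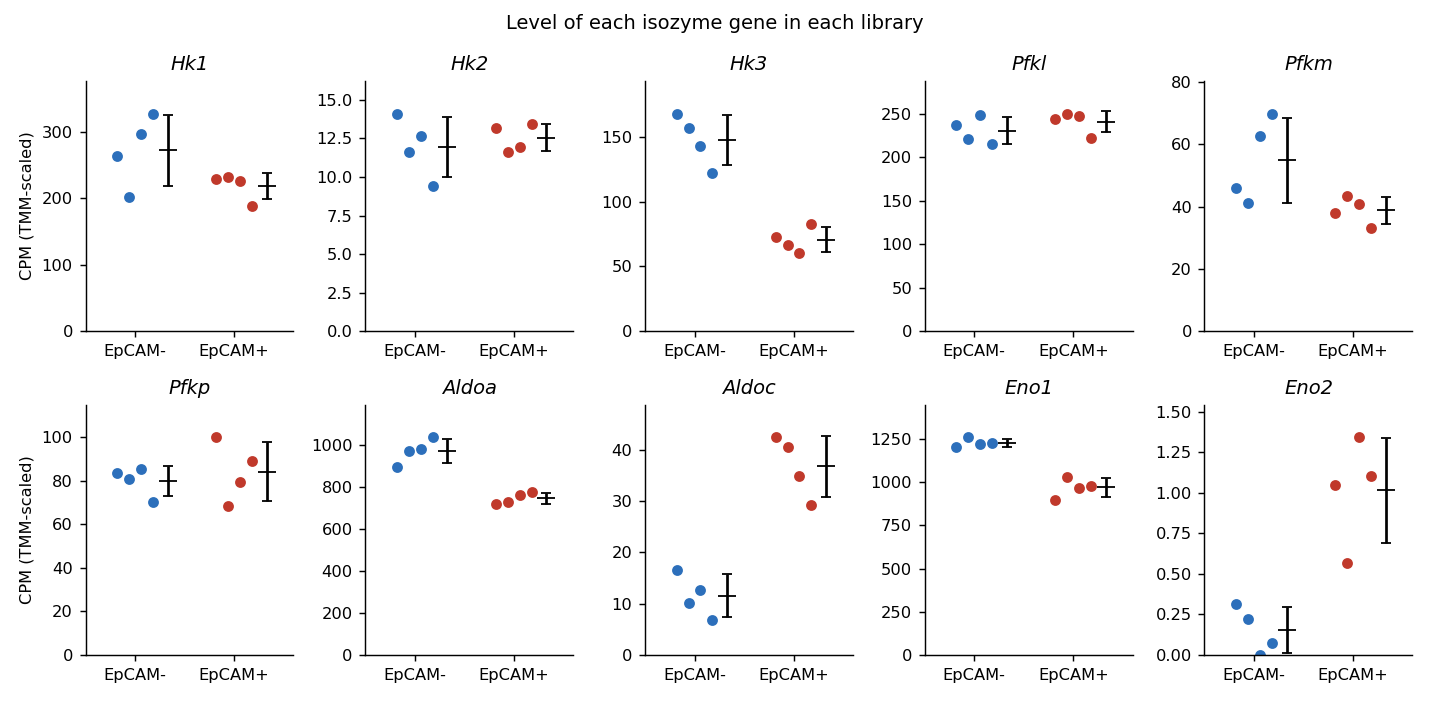
Level of each isozyme gene in CPM (linear axis from 0, scaled by TMM) in the 4 EpCAM- libraries (blue, replicates 1 to 4 from left to right) and the 4 EpCAM+ libraries (red), with the mean ± SD of each fraction in black. Hk3, Aldoa and Eno1 lie lower in all EpCAM+ libraries, Aldoc and Eno2 lie higher, and the other genes overlap.

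The upstream sequences of the clearly separated lower hexokinase, Hk3, and of the single tested isozyme that rose, Aldoc, are shown because these members moved in opposite directions. Both were read 5′ to 3′ on the gene's own strand from RefSeq promoters (GRCm38.p6) and end at the base before the gene as drawn in the count table. Hk3 is from chr13:55021386-55021635 (minus strand) and Aldoc from chr11:78322823-78322967 (plus strand). Capitals mark ACGTG, a form of the core of the hypoxia response element, on either strand (CACGT when read in reverse). They also mark CACCTG, the E-box bound by ZEB proteins. The other form of the hypoxia core, GCGTG, was not searched.
Hk3: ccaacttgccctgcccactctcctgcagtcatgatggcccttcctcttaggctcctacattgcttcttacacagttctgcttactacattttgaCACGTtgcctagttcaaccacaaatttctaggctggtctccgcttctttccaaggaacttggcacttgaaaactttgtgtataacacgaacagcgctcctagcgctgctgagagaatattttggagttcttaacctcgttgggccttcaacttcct
Aldoc: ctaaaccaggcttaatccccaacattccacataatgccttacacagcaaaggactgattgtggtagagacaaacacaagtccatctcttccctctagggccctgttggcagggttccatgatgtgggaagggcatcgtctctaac
The Hk3 stretch of 250 bases held 1 ACGTG match and no CACCTG, and the Aldoc stretch of 145 bases held neither. The 300-base window from which the Aldoc stretch was cut did hold 1 ACGTG match, at least partly beyond the bases shown. Because the stretches differ in length, their match counts are not comparable. All 10 genes had RefSeq promoters, in 19 windows of 300 bases each. ACGTG was found on either strand in 8 of the 19 windows (42.1%), which belonged to 6 genes (Hk1, Hk2, Hk3, Pfkm, Aldoa and Aldoc), and in 19.6% of the 32851 windows of all genes. CACGTG, the E-box of Myc and Max, which contains ACGTG, was in 1 window (5.26%) beside 7.15% of all windows, and CACCTG was in 3 windows (15.8%) beside 20.2%. Several windows of a gene can overlap, so these shares only describe the letters present.

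Hexokinase was the step with the largest difference in total level among the 4. Hk3, the isozyme known from granulocytes and monocytes, was roughly halved in EpCAM+ cells. It lay at 72.4, 66.7, 60.2 and 82.8 CPM in EpCAM+ replicates 1 to 4 and at 168, 157, 143 and 122 CPM in EpCAM- replicates 1 to 4. No EpCAM+ library came near the lowest EpCAM- library. The means were 70.5 ± 9.57 and 148 ± 19.7 CPM (SD, n = 4 each), a log2 fold change of -1.07 (SE 0.12, edgeR adjusted p = 0.000226). Every alternative fit kept this call, with log2 fold changes of -1.16 to -0.999 when single libraries were left out.

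Early neutrophil markers were lower in EpCAM+ cells along with Hk3. All 4 of the markers (Elane, Mpo, Prtn3 and Ctsg, the granule proteins of promyelocytes) were lower in EpCAM+ cells, none was at 0, and their summed level ran from 952 to 1756 CPM in EpCAM+ libraries and from 11774 to 18364 CPM in EpCAM- libraries. EpCAM- replicate 1 was highest and replicate 4 lowest of its fraction in both Hk3 and the marker sum, while replicates 2 and 3 stood in reverse order (sums of 13615 and 15233 CPM). EpCAM+ replicate 4 was highest of its fraction in both, but EpCAM+ replicate 1 had the lowest sum and the next highest Hk3. Late neutrophil markers overlapped between fractions, at 81.9 to 151 CPM and 59.3 to 212 CPM, with 1 of 6 lower. Of 6 monocyte and macrophage markers tested 4 were lower, though their sums overlapped (14.5 to 145 CPM in EpCAM+, 62.4 to 116 CPM in EpCAM-), and 3 of 4 mast cell and basophil markers were lower (66.1 to 85.5 against 221 to 471 CPM). Of all genes tested, 20.8% were lower, so 1 of 6 late neutrophil markers was near that share. In bulk libraries, fewer cells of a type and less RNA per cell cannot be told apart. What part these cells had in the Hk3 difference was not tested.

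Hk1, the broadly expressed hexokinase and the main one of red cells, had 229, 232, 226 and 189 CPM in EpCAM+ replicates 1 to 4 and 263, 202, 297 and 328 CPM in EpCAM- replicates 1 to 4. EpCAM- replicate 2 fell inside the EpCAM+ range, so the fractions overlapped. The log2 fold change was -0.32 (SE 0.14, edgeR adjusted p = 0.0839), and without EpCAM- replicate 2 it was -0.44 (edgeR adjusted p = 0.00886), which passed. Hk2, the isozyme of muscle and of many tumours that hypoxia and insulin induce, was the least abundant of the 3. Its levels were 13.2, 11.6, 11.96 and 13.4 CPM in EpCAM+ cells and 14.1, 11.6, 12.6 and 9.41 CPM in EpCAM- cells. They overlapped over most of their range, and the log2 fold change of 0.07 had a 95% interval of -0.24 to 0.38.

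The makeup of the hexokinase pool was compared within each library, as each gene's percent of the family's counts per kb of merged exon length, with exact two-sided permutation tests over the 8 libraries. The smallest p of such a test is 0.0286, and p-values were adjusted over the 8 shares tested. These tests did not pair libraries by replicate number, and a paired exact test on 4 pairs cannot go below 0.125. Hk3 made up 40.8% ± 5.03 of the pool in EpCAM+ and 54.2% ± 7.47 in EpCAM- libraries, and Hk1 made up 54.7% ± 5.25 and 43.1% ± 7.78 (SD, n = 4, exact p = 0.0571 for both, adjusted 0.0653). Neither share passed, since EpCAM+ replicate 4 (48.0% Hk3) and EpCAM- replicate 4 (45.4% Hk3) crossed. The Hk2 share did separate, at 4.48% ± 0.28 against 2.70% ± 0.37 (exact p = 0.0286, adjusted 0.0457), with no difference in Hk2 CPM found. The summed hexokinase level fell by 0.66 on the log2 scale of CPM per kb (5.55 ± 0.05 in EpCAM+, 6.21 ± 0.09 in EpCAM-, exact p = 0.0286, adjusted over 4 totals 0.0381). With other gene lengths or none, no share of any family kept an adjusted p under 0.05. With the length behind the authors' FPKM and library totals without TMM, neither did any total.

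Which hexokinase led in EpCAM- cells depended on the gene length used. With the merged exon length Hk3 stood at 40.1 ± 5.34 and Hk1 at 32.0 ± 6.31 CPM per kb. With the longest coding transcript of GENCODE M21 the order turned, at 45.9 for Hk3 and 63.7 for Hk1, and with the shorter length behind the authors' FPKM it was 70.9 and 210. In EpCAM+ cells Hk1 led under all 3 lengths. The direction of each hexokinase share difference was the same under all 3.

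**Figure D2:**
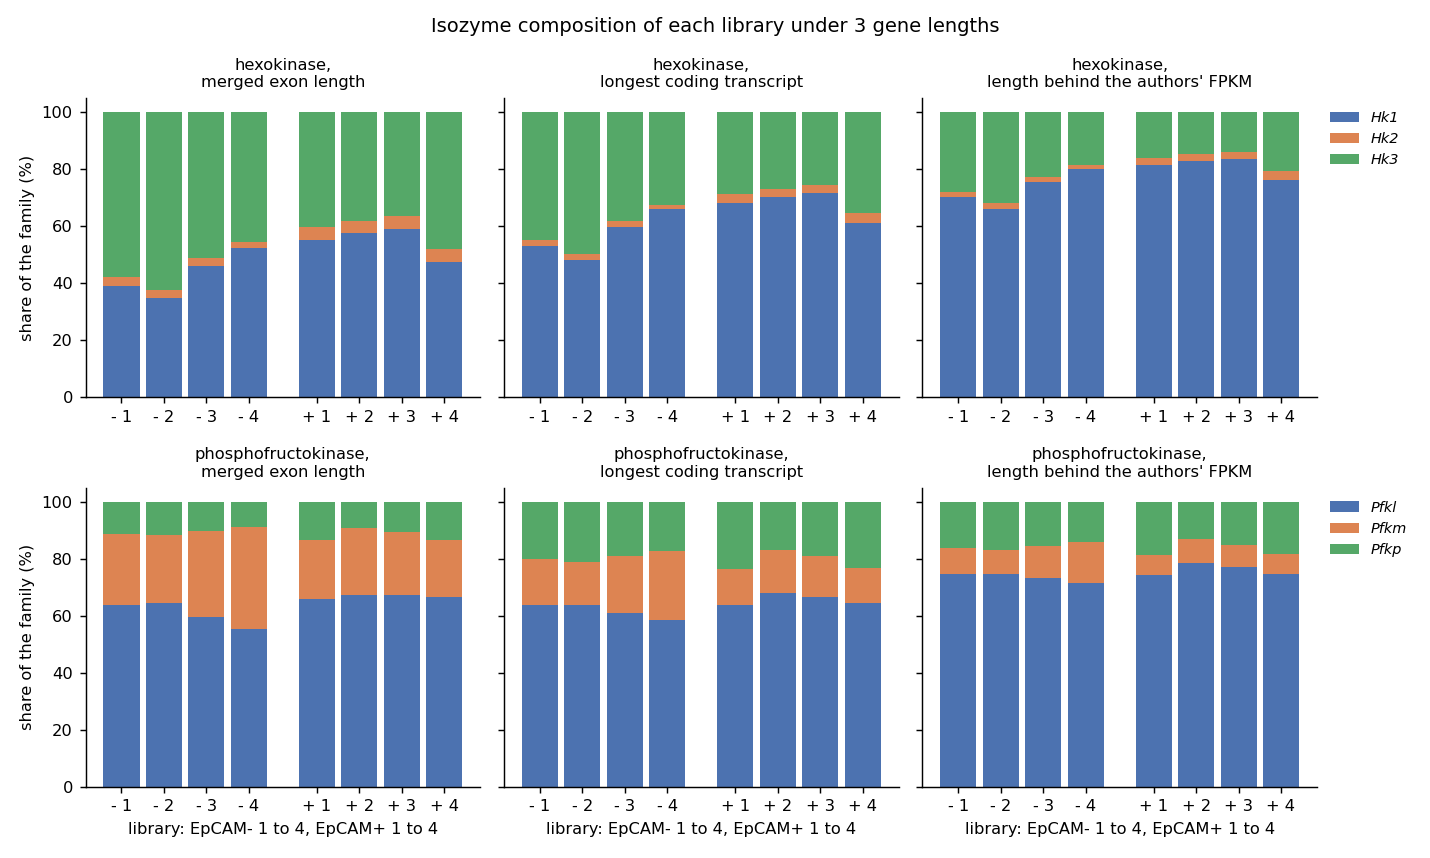
Share of each isozyme in the hexokinase (top) and phosphofructokinase (bottom) counts per kb of every library, in percent stacked to 100, with EpCAM- replicates 1 to 4 left and EpCAM+ replicates 1 to 4 right, under 3 gene lengths. The Hk3 share is lower and the Hk1 share higher on average in EpCAM+ libraries in each column, while the level of the shares moves with the length.

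Phosphofructokinase differed in makeup and little in total. Pfkm, the muscle isozyme, was the only one of the 3 that passed. It had 38.0, 43.4, 41.0 and 33.3 CPM in EpCAM+ replicates 1 to 4 and 46.0, 41.1, 62.9 and 69.9 CPM in EpCAM- replicates 1 to 4. EpCAM- replicate 2 lay below EpCAM+ replicate 2, and the higher EpCAM- mean came mostly from replicates 3 and 4. Means were 38.9 ± 4.35 and 54.95 ± 13.6 CPM, a log2 fold change of -0.50 (SE 0.16, edgeR adjusted p = 0.0324). The call was lost under upper-quartile scaling (-0.41, edgeR adjusted p = 0.0624) and library totals (-0.41, edgeR adjusted p = 0.0700), and in 5 of the 8 fits without 1 library (EpCAM+ replicate 1, 3 or 4, or EpCAM- replicate 3 or 4), with edgeR adjusted p from 0.0565 to 0.0889.

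The same EpCAM- libraries were rich in erythroid markers. Their summed level was 1901, 2178, 4871 and 6619 CPM in EpCAM- replicates 1 to 4 and 49.3 to 233 CPM in EpCAM+ libraries. Of the 6 erythroid markers 5 were lower and 1 higher in EpCAM+ cells, beside 20.8% lower and 21.8% higher of all genes. None of the 6 was at 0 throughout a fraction. Hk1 was likewise highest in EpCAM- replicates 3 and 4. Within the EpCAM+ fraction, replicate 4 had the highest erythroid sum (233 CPM, the others 49.3 to 92.1 CPM) and the lowest Pfkm and Hk1. The order there was the full reverse for Hk1. For Pfkm it was not, as replicate 3 stood above replicate 1 in both the sum (92.1 and 70.2 CPM) and Pfkm. What part erythroid cells had in the Pfkm and Hk1 values was not tested.

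Pfkl, the liver-type isozyme and the most abundant phosphofructokinase here, had 244, 250, 248 and 223 CPM in EpCAM+ cells and 237, 221, 249 and 215 CPM in EpCAM- cells. The fractions overlapped, with a log2 fold change of 0.06 (95% interval -0.10 to 0.23). Pfkp, the platelet isozyme, had 100.03, 68.4, 79.4 and 89.2 CPM in EpCAM+ cells and 83.5, 81.1, 85.5 and 70.1 CPM in EpCAM- cells. The EpCAM+ libraries spread wider and enclosed all of the EpCAM- values, with a log2 fold change of 0.07 (95% interval -0.18 to 0.33).

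Within the phosphofructokinase pool, Pfkm took 21.5% ± 1.56 in EpCAM+ and 28.7% ± 5.50 in EpCAM- libraries, and Pfkl took 66.8% ± 0.63 and 60.8% ± 4.28 (exact p = 0.0286 for both, adjusted 0.0457, no overlap). The Pfkp shares of 11.7% ± 2.09 and 10.5% ± 1.23 overlapped (exact p = 0.371). With the longest coding transcript as length, the Pfkl shares overlapped (exact p = 0.0857) and the Pfkm shares still separated (exact p = 0.0286, adjusted 0.0571). The summed level differed by -0.07 on the log2 scale (exact p = 0.343) and turned to a positive sign under upper-quartile scaling and library totals (0.0127 and 0.0106). Pfkm stood above Pfkp per kb of merged exon in EpCAM- cells, at 16.5 and 5.97 CPM per kb, but below it with the length behind the FPKM, at 28.3 and 40.4.

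Aldolase was the step where both isozymes passed the edgeR test, in opposite directions. Aldoc, the aldolase best known from brain, had 42.4, 40.5, 34.8 and 29.2 CPM in EpCAM+ replicates 1 to 4 and 16.6, 10.1, 12.6 and 6.77 CPM in EpCAM- replicates 1 to 4. The lowest EpCAM+ library was above the highest EpCAM- library. Means were 36.7 ± 5.94 and 11.5 ± 4.15 CPM, a log2 fold change of 1.67 or 3.18-fold (SE 0.23, edgeR adjusted p = 0.000576), and the call held in every fit with log2 fold changes of 1.48 to 1.90 when single libraries were left out. Aldoa, the ubiquitous and muscle aldolase, had 718, 729, 762 and 775 CPM in EpCAM+ cells and 895, 972, 984 and 1037 CPM in EpCAM- cells. The fractions did not overlap, yet the difference was modest, with a log2 fold change of -0.38 (SE 0.08, edgeR adjusted p = 0.00296).

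Aldoa stayed by far the larger part of the pool. Aldoc rose from 1.06% ± 0.44 of aldolase counts per kb in EpCAM- to 4.22% ± 0.79 in EpCAM+ libraries (exact p = 0.0286, adjusted 0.0457), and the summed level fell by 0.33 on the log2 scale (exact p = 0.0286, adjusted 0.0381). The second Aldoa row, a short gene model of 799 bases, had 7 to 29 counts per library and did not pass (log2 fold change 0.62, edgeR adjusted p = 0.197). Summed HSPC markers were 2460 to 2843 CPM in EpCAM+ and 1190 to 1821 CPM in EpCAM- libraries, with EpCAM- replicate 1 highest and replicate 4 lowest of its fraction in both the sum and Aldoc. EpCAM- replicates 2 and 3 stood in reverse order (sums of 1631 and 1405 CPM), and EpCAM+ replicate 3 had the highest sum but not the highest Aldoc. Of the EpCAM- sums, 630 to 968 CPM was Cd34, which did not pass. EpCAM+ replicate 1, with the highest Aldoc, also stood apart in plasma cell and dendritic cell markers. EpCAM+ replicate 4, also high in dendritic cell markers, had the lowest Aldoc of its fraction. What part any of these cells had in the Aldoc difference was not tested.

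**Figure D3:**
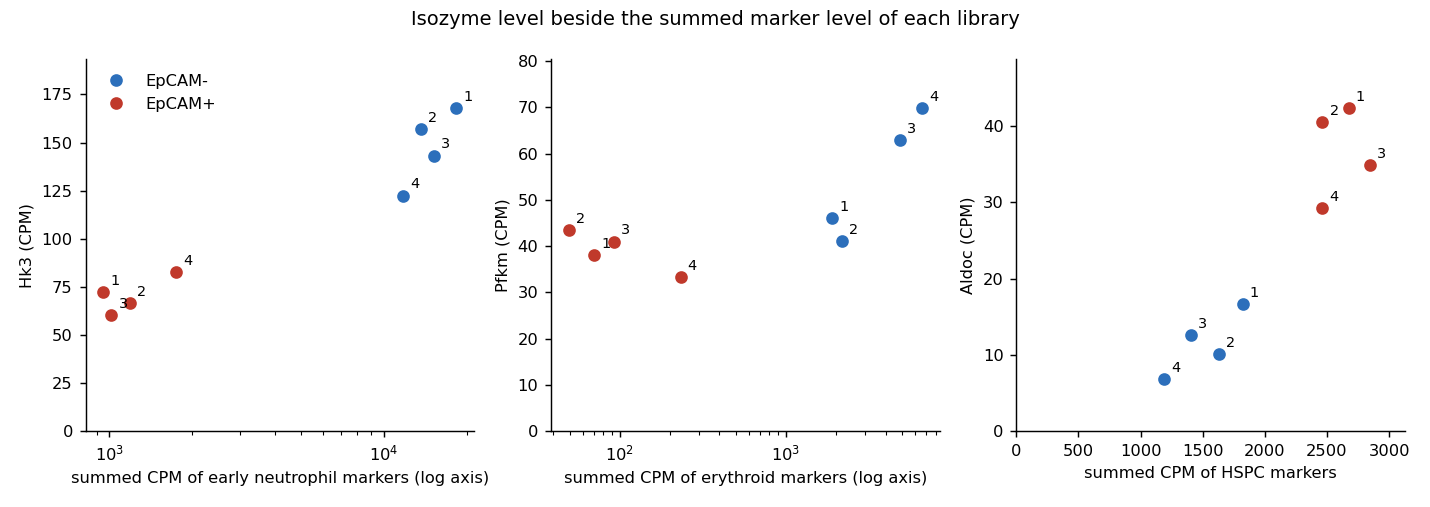
CPM of Hk3, Pfkm and Aldoc (vertical, linear from 0) against the summed CPM of early neutrophil, erythroid (both on a log axis) and HSPC markers (linear axis), with 1 point per library, EpCAM- in blue and EpCAM+ in red and the replicate number beside each. Pfkm is highest in EpCAM- replicates 3 and 4, where the erythroid sum is 4871 and 6619 CPM.

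Enolase was lower in total. Eno1, the ubiquitous enolase, had 900, 1033, 968 and 980 CPM in EpCAM+ and 1204, 1261, 1224 and 1226 CPM in EpCAM- replicates 1 to 4. The EpCAM- libraries lay within a narrow band above all EpCAM+ libraries, and the log2 fold change was -0.34 (SE 0.07, edgeR adjusted p = 0.00466). Of 100-base words in the longest coding Eno1 transcript, 59.0% were also found in transcripts of other genes, nearly all of them in the near-copy Eno1b, so the split of reads between these genes is uncertain. No such word was shared for any of the other 9 isozyme genes.

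Eno2, the neuronal enolase, was scarce. It had 16, 10, 24 and 17 counts in EpCAM+ replicates 1 to 4 and 5, 3, 0 and 1 counts in EpCAM- replicates 1 to 4. No EpCAM- library reached the lowest EpCAM+ library. In CPM this was 1.01 ± 0.32 against 0.15 ± 0.14 (exact two-sided permutation p = 0.0286), and as a share of enolase counts per kb 0.121% ± 0.041 against 0.0142% ± 0.0133 (exact p = 0.0286, adjusted 0.0457). The gene fell under the count filter, and a fit without it gave a log2 fold change of 2.64 (edgeR adjusted p = 0.00819). The summed enolase level was 0.34 lower on the log2 scale, with means of 7.49 ± 0.08 in EpCAM+ and 7.84 ± 0.03 in EpCAM- libraries (exact p = 0.0286, adjusted 0.0381).

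Across the 4 steps, Aldoa and Eno1 had the highest levels per kb of merged exon, at 256 ± 9.35 and 180 ± 10.1 CPM per kb in EpCAM+ and 334 ± 20.1 and 228 ± 4.38 in EpCAM- cells. With the length behind the FPKM, Eno1 led Aldoa instead, at 1315 and 938 in EpCAM- cells. In EpCAM+ cells Pfkl (36.1), Hk1 (25.7), Hk3 (19.2), Pfkm (11.6) and Aldoc (11.3 CPM per kb) followed, of which Pfkm and Aldoc differed by less than their SDs. Pfkp (6.29), Hk2 (2.10) and Eno2 (0.216) were lowest with this length. With the longest coding transcript Pfkp, at 20.3 CPM per kb, stood above Pfkm (13.5) and Aldoc (13.2), and with the length behind the FPKM, at 42.5, it also stood above Hk3 (33.9). In EpCAM- cells Aldoc, at 3.53 CPM per kb, ranked under Pfkp at 5.97. Pfkl, at 34.5 ± 2.31 CPM per kb, and Hk1 there differed by less than the SD of Hk1.

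For the isozyme with the highest mean CPM per kb of merged exon over all 8 libraries in each family, the tested genes whose levels varied most alike within fractions were Map3k3 for Hk3 (r = 0.96), Gtf2i (r = 0.99) and Zfp324 (r = 0.98) for Pfkl, Gm16286 and Hnrnpdl for Aldoa (r = 0.98 for both), and Apip (r = 0.98) and Pym1 (r = 0.96) for Eno1. These Pearson correlations are over 8 libraries, after each fraction's mean was removed, and were picked as the highest among the 13560 genes, so they only describe these libraries. The libraries share depth and scaling, and with the other gene lengths Hk1 and not Hk3 would lead the hexokinases.

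The other isozymes of the 4 steps were few or low. Adpgk, an ADP-dependent glucokinase, had 27.8 ± 1.35 CPM in EpCAM+ and 39.3 ± 2.23 CPM in EpCAM- cells and was lower (log2 fold change -0.50, edgeR adjusted p = 0.00108). Eno3, the muscle enolase, was also lower, at 6.995 ± 0.711 against 9.86 ± 1.66 CPM (-0.49, edgeR adjusted p = 0.0313), and its fractions overlapped. Eno1b had 15.3 ± 2.47 and 18.2 ± 0.34 CPM and did not pass. Hkdc1 and Eno4 had 0 to 3 counts in any library.

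Of the 11 genes of the other glycolytic steps, 9 were tested, of which 2 were higher, 4 were lower and 3 did not pass, beside 21.8% higher and 20.8% lower of all genes. The largest fold belonged to Pklr, the pyruvate kinase of liver and red cells, at 0, 0.23, 0.34 and 0.78 CPM in EpCAM+ and 12.8, 13.4, 25.2 and 31.9 CPM in EpCAM- replicates 1 to 4 (log2 fold change -5.93, SE 0.55, edgeR adjusted p = 0.000145). Its EpCAM- levels were highest in the libraries richest in erythroid markers, whose part in it was not tested. Gpi1, which turns glucose 6-phosphate into fructose 6-phosphate between the hexokinase and phosphofructokinase steps, was lower (393 ± 21.2 against 558 ± 32.7 CPM, log2 fold change -0.51, edgeR adjusted p = 0.000725). Pgam1, the mutase just before enolase, was lower too (log2 fold change -0.66, edgeR adjusted p = 0.00178), with 39.7% of its 100-base words shared with other genes. Bpgm, which makes 2,3-bisphosphoglycerate in red cells, was higher (41.3 ± 5.43 against 29.3 ± 2.07 CPM, log2 fold change 0.50, edgeR adjusted p = 0.00491). The remaining calls, named after their values were seen, were Tpi1 and Pgam2. Tpi1, the triose isomerase, had a log2 fold change of -0.26. Pgam2, the muscle mutase, had one of 1.78, at 1.40 against 0.40 CPM. Pgam2 passed the count filter only through the EpCAM+ libraries (11 to 43 counts, against 3 to 8 in EpCAM- libraries). Pkm, Pgk1 and Gapdh did not pass, and 67.0% of the 100-base words of Pgk1 and 78.0% of those of Gapdh were shared with other genes, so their values are uncertain. The median of the 9 was -0.22.

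Genes of glucose entry and of the regulators around phosphofructokinase numbered 14, of which 11 were tested, with 5 higher, 2 lower and 4 not passing, beside 21.8% higher and 20.8% lower of all genes. Their median log2 fold change was 0.29, beside 0.02 over all genes. Slc2a3, the glucose transporter GLUT3, was at 62.3 ± 4.15 CPM in EpCAM+ and 35.3 ± 4.27 CPM in EpCAM- cells (log2 fold change 0.82, edgeR adjusted p = 0.000298). Fbp1, which reverses the phosphofructokinase reaction in gluconeogenesis, was at 159 ± 17.7 and 87.7 ± 20.1 CPM (0.86, edgeR adjusted p = 0.00185). Pfkfb3, which makes the phosphofructokinase activator fructose 2,6-bisphosphate, was higher (log2 fold change 0.51, edgeR adjusted p = 0.0167), and Slc2a6 was lower, at 0.849 ± 0.538 against 4.18 ± 1.28 CPM (-2.31, edgeR adjusted p = 0.00237). Calls outside the naming rule, named after their values were seen, were Slc2a1 (GLUT1, log2 fold change 0.60) and Slc2a9 (0.70) as higher and Slc2a8 (-0.69) as lower.

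Of 7 hypoxia factors, namely HIF transcription factors, whose targets include several glycolytic enzymes, and regulators of HIF, 6 were tested. None was higher and 2 were lower, beside 21.8% higher and 20.8% lower of all genes. The median log2 fold change was -0.14, beside 0.02 over all genes. The lower ones were the prolyl hydroxylases Egln1 (24.1 ± 1.68 against 32.3 ± 2.69 CPM, log2 fold change -0.42, edgeR adjusted p = 0.00527) and Egln3 (-0.46, edgeR adjusted p = 0.0394), which mark HIF proteins for destruction when oxygen is present. Egln2 had a log2 fold change of -0.20 (edgeR adjusted p = 0.0738) and Hif1a one of 0.26 (edgeR adjusted p = 0.128), and neither passed.

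**Figure D4:**
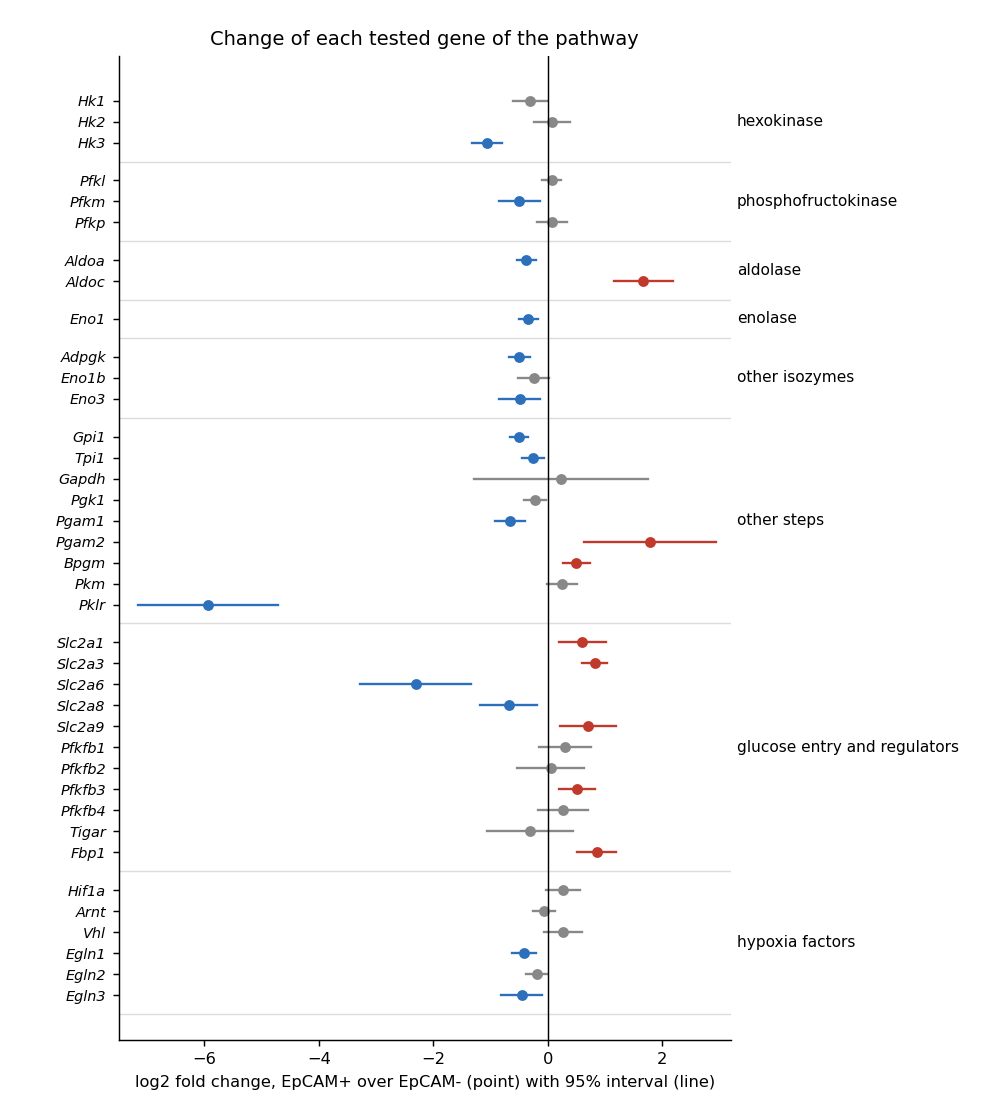
The log2 fold change of EpCAM+ over EpCAM- (points) with its unadjusted 95% interval (lines) for the 9 tested isozyme genes and the tested genes of the 4 pathway lists, in red where higher, blue where lower and grey where the edgeR adjusted p did not pass 0.05. Aldoc at 1.67 is the single tested isozyme on the right among those that passed, and Pklr at -5.93 has the largest change shown.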

How the data were processed

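RNA from EpCAM+ and EpCAM- Zeb1-/- LSK cells was amplified by SMART-Seq v4 and sequenced as paired ends. Per the labels and the study's methods, the authors aligned reads to GRCm38.p6 with STAR 2.6.1d and deposited raw gene counts from featureCounts 1.5.0-p3, together with FPKM, whose implied gene lengths were, for the 10 members, shorter than the merged exon lengths in the same table. Strand handling in counting is not given in the sources used here. The deposited table also has columns in which the authors compared the fractions (fold changes and p-values, with DESeq2 1.20.0 in the submitters' notes), and these were not used.

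Counts were filtered with filterByExpr, scaled by TMM and tested with the quasi-likelihood test of edgeR 4.0.16 in R 4.3.3, with Benjamini-Hochberg adjustment at 0.05 over all 13560 genes tested. CPM were computed from the counts and TMM-scaled library sizes, and 54532 rows were read. Depth of 14114491 to 17073546 counts puts 3 counts at 0.168 to 0.222 CPM. The tests were tried first on simulated data. Isozyme shares and family totals used counts per kb of merged exon and exact two-sided permutation tests. Alternatives were the DESeq2 1.42.0 fit, limma-trend 3.58.1, a replicate block, and leaving out each library. Other scalings, filters and lengths were also tried, among them size factors of the DESeq2 type computed by the RLE method of edgeR. Longest coding transcripts and a wider family membership were added after the data were seen. Sequences came from RefSeq promoters and shared 100-base words from GENCODE M21 transcripts.

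The members and lists were chosen with earlier results of these data known. Named genes were all 10 members, up to 4 genes with the smallest adjusted p of each pathway list, every other isozyme of the 4 steps with counts, and the 2 genes most alike to the leading isozyme of each family, except a few items that are not reported here. Libraries with the same replicate number deviated together from their fraction means (r = 0.205 to 0.356 in 4 pairs, against -0.216 to 0.0396 in 12 pairs of different number), so the numbers may pair the samples. The main fit and the exact tests of shares and totals were unpaired. What a number marks is not given in the sources used here.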

Additional observations from a re-analysis of the deposited data

Results flagged for a closer look

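Of 44 sets of 4 values examined (members, shares and totals in each fraction), 2 held a library far from the other 3 by Dixon's gap ratio at the 95% level, and chance gives about 1 such set in 20. Both involved EpCAM+ replicate 4. Hk1 was at 189 CPM there, with the other EpCAM+ libraries at 226 to 232 CPM (gap ratio 0.856). The phosphofructokinase total was 5.64 log2 CPM per kb there, with the others at 5.79 to 5.80 (gap ratio 0.961). Without this library the log2 fold change of Hk1 was -0.26 and the difference in the phosphofructokinase total was -0.04, beside -0.32 and -0.07 with it. Hk1 passed in neither fit, and the total was not tested without this library.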

How the results depend on the processing

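Calls for Hk3, Aldoa, Aldoc and Eno1 and the lack of one for Hk2, Pfkl and Pfkp were the same in every fit tried. With a replicate block, 1 isozyme was higher and 4 were lower, as in the unpaired fit, and no call on a single isozyme changed. The paired exact test on 4 pairs cannot go below 0.125 for shares and totals. With no filter and with DESeq2 the number higher was 2, Eno2 being added as log2 fold change 2.64 (adjusted p = 0.00819) and 2.70 (adjusted p = 0.00175). Leaving out 1 library gave 1 to 2 higher (2 in 5 of 8 fits, when Eno2 passed the filter) and 3 to 5 lower. In those fits Eno2 passed the filter only through the EpCAM+ libraries, where it was high. Without EpCAM- replicate 4, Hk2 turned to -0.0341 (range -0.0341 to 0.155), and without EpCAM+ replicate 1, Pfkp turned to -0.0255 (range -0.0255 to 0.161), neither passing. Share differences in percentage points follow for counts not divided by length, the length behind the authors' FPKM and the longest coding transcript, in turn. They were 1.38, 0.777 and 1.08 for Hk2 and 3.12, 2.598 and 3.91 for Pfkl. For Pfkm they were -4.33, -3.27 and -5.27, for Aldoc 3.52, 3.17 and 2.01, and for Eno2 0.0930, 0.0726 and 0.0675. None had an adjusted p under 0.05. For Hk2, Aldoc and Eno2 the exact p stayed at its smallest, 0.0286, and the adjusted p rose to 0.0571 or 0.0762 as fewer of the 8 shares reached it. With the length behind the FPKM and library totals without TMM, totals differed by -0.37 for hexokinase (exact p = 0.0571, adjusted 0.0762). For aldolase and enolase they differed by -0.25 and -0.26 (both exact p = 0.0286, adjusted 0.0571). The phosphofructokinase total turned to 0.0127 under upper-quartile scaling, 0.0106 under library totals and 0.10 with the length behind the FPKM and library totals. The cause was not tested. Eno2, at 0 to 24 counts per library, is limited by depth.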
